A study of Canis lupus familiaris with 12 samples.

Results

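The genes that load, dock and fuse synaptic vesicles are described here in dog hippocampus as 33 of 31158 gene models in the deposited table. They were picked by symbol and not by a rule on their measured values, though earlier results of these data were known. All 33 symbols were present. All had a mean of at least 0.5 RPKM (reads assigned to a gene, scaled to its exon length and to the library's total of assigned reads), the limit for testing. They comprise 17 vesicle proteins, 9 SNARE and fusion genes and 7 active zone genes. The tissue came from beagles after a sham operation or after 2 weeks of rapid atrial pacing, which drives the atria electrically and is used to induce atrial fibrillation. Each arm holds 3 libraries, and both arms share the breed, the tissue and the stranded mRNA library kit. The study asked how atrial fibrillation relates to cognitive impairment. The labels do not say that each library came from a separate dog, so p-values measure only the spread between these samples, which may be technical.

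A nerve terminal releases transmitter when a vesicle fuses with the plasma membrane in response to calcium. The vesicle SNARE (a VAMP) zips together with the membrane SNAREs syntaxin 1 and SNAP-25, complexins clamp and assist that complex, and synaptotagmins sense the calcium. NSF and its SNAP adaptors then take the spent complex apart. Large scaffold proteins of the active zone hold vesicles and calcium channels at the release site, where UNC13 proteins make vesicles ready to fuse. In hippocampus these steps set the release probability of the synapses that carry memory-related plasticity.

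None of the 33 genes passed the test of pacing against sham, and for most of them the libraries of the sham arm were spread more widely than those of the pacing arm. By limma with Benjamini-Hochberg adjustment over all 16090 genes tested, 0 of 33 passed at 0.05, where 4 genes of the whole table (0.0249%) did. The smallest adjusted p of a member was 0.54, for UNC13B. At an unadjusted p under 0.05 there was 1 member, against 9.15% of all genes. By the sign of the fitted difference on the log2(RPKM + 1) scale, 17 members were higher in pacing and 16 lower, with a median log2 difference of 0.0009, beside -0.04 for all genes tested. By arm means of RPKM itself 13 were higher and 20 lower, since SYN2, SYT4, SYT7 and BSN differ in sign between the scales. Counts by direction below use the fitted difference. With median-of-ratios scaling in place of the authors' scaling the split was 24 higher and 9 lower, and with library weights 12 higher and 21 lower. Neither alternative called a member, and voom on recovered reads also called 0.

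The libraries held 35003483 to 51789497 assigned reads, and a single member had between 206 and 163871 reads in a library. The 33 genes together took 1.29% to 1.35% of the assigned reads in pacing, and 1.32%, 0.991% and 1.48% in sham replicates 1, 2 and 3. The hippocampal markers PROX1, a transcription factor of dentate granule cells (4.82 to 7.90 RPKM), and NRGN, a postsynaptic protein of principal neurons (248 to 380 RPKM), were present in every library. Sham replicate 2 stood apart, and sham replicate 3 in part. All 8 oligodendrocyte markers tested were at their highest in sham replicate 2 and at their lowest in sham replicate 3, and their summed level was 2813 and 1116 RPKM there, against 1551 to 1921 in the other 4 libraries. The choroid plexus transcript TTR ran from 2.46 RPKM in sham replicate 1 to 449 in sham replicate 2, and the summed level of 9 immediate early genes was 47.7 RPKM in sham replicate 2 against 12.5 to 25.0 elsewhere. Their part in the results below was not tested.

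Levels of the members spanned from 1.82 RPKM for RAB3B to 876 for SNAP25 as means of the 6 libraries. RPKM compares genes per base of the annotated exons, so a gene model that lacks part of its transcript shifts the level. SNAP25, the membrane SNARE of neurons, stood at 907, 1136 and 886 RPKM in pacing replicates 1 to 3 and at 940, 601 and 786 in sham replicates 1 to 3. CPLX2, a complexin, followed at 755, 654 and 680 in pacing and 554, 597 and 846 in sham. SNAP25 was above CPLX2 in 5 of 6 libraries, and sham replicate 3 had the reverse order. SYT1, the calcium sensor of fast release, was below CPLX2 in all 6 and above NSF in all 6, with no overlap against NSF over the libraries. SYP (mean 170 RPKM), CPLX1 (121) and SYT11 (115) came next, and neighbours in this part of the order overlapped over libraries. The median of the class means was 93.6 RPKM for SNARE and fusion genes, 34.8 for vesicle proteins and 10.2 for active zone genes. UNC13A had the highest 6-library mean at the active zone, 31.0 RPKM, though RIMS1 was above it in sham replicates 2 and 3.

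**Figure D1:**
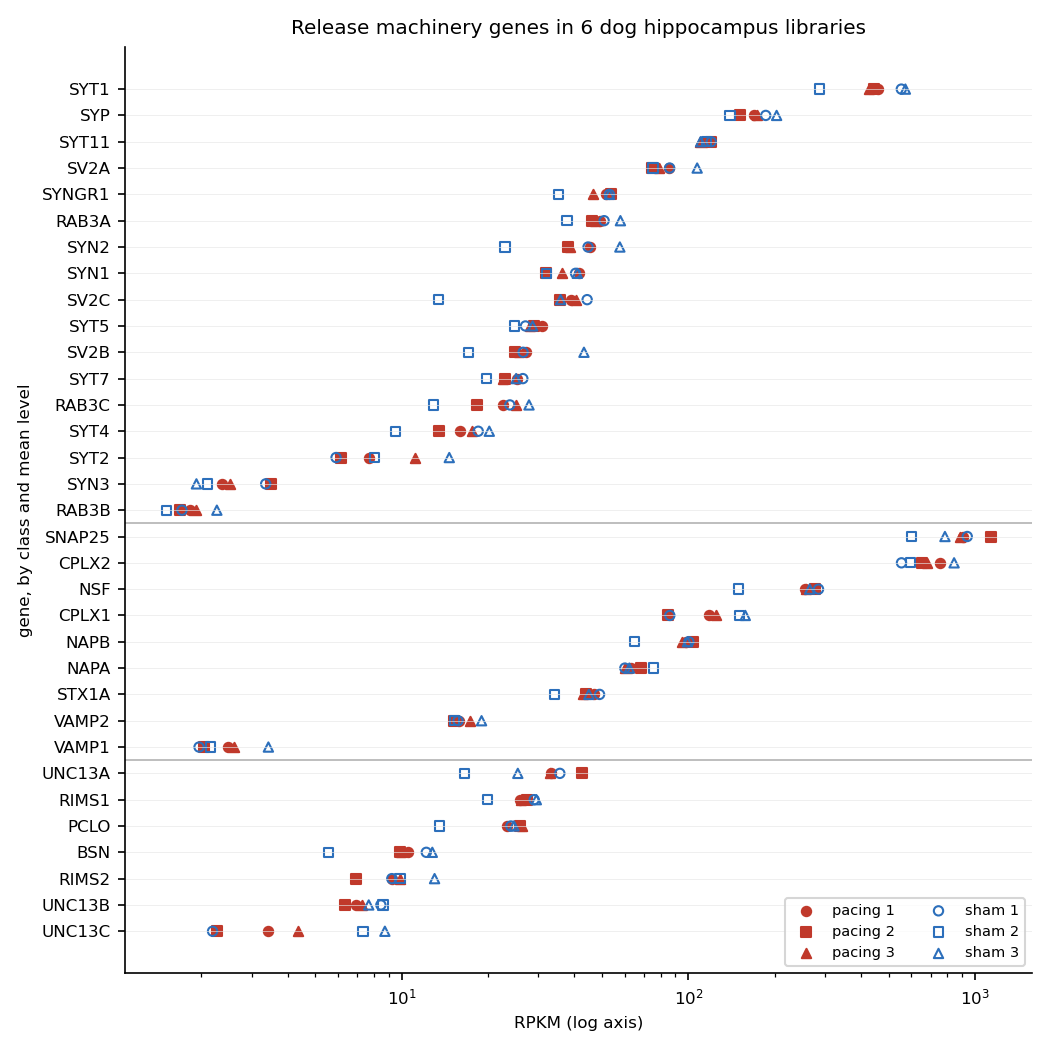
RPKM (log axis) of the 33 genes, grouped by class and ordered by mean level, with 1 point per library (filled red for pacing, open blue for sham, the shape giving the replicate number). Pacing points lie close together for most genes, and sham replicate 2 (open square) is at the low end for 20 of 33.

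Sham libraries varied more than pacing libraries. The SD of log2(RPKM + 1) was larger in sham for 31 of 33 members (93.9%, against 78.8% of all genes tested), with a median SD of 0.32 in sham and 0.09 in pacing. For all genes tested the medians were 0.19 and 0.09. Sham replicate 2 was the lowest of the 6 libraries for 20 members, a share of 60.6% beside 24.0% of all genes, and sham replicate 3 was the highest for 18, or 54.5% beside 24.8%. In 10 genes both held at once. All pacing libraries lay between the lowest and the highest sham library in 19 of 33 members, and in 35.9% of all genes. Arms did not overlap for 1 member (UNC13B, lower in pacing), against 16.2% of all genes tested.

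**Figure D2:**
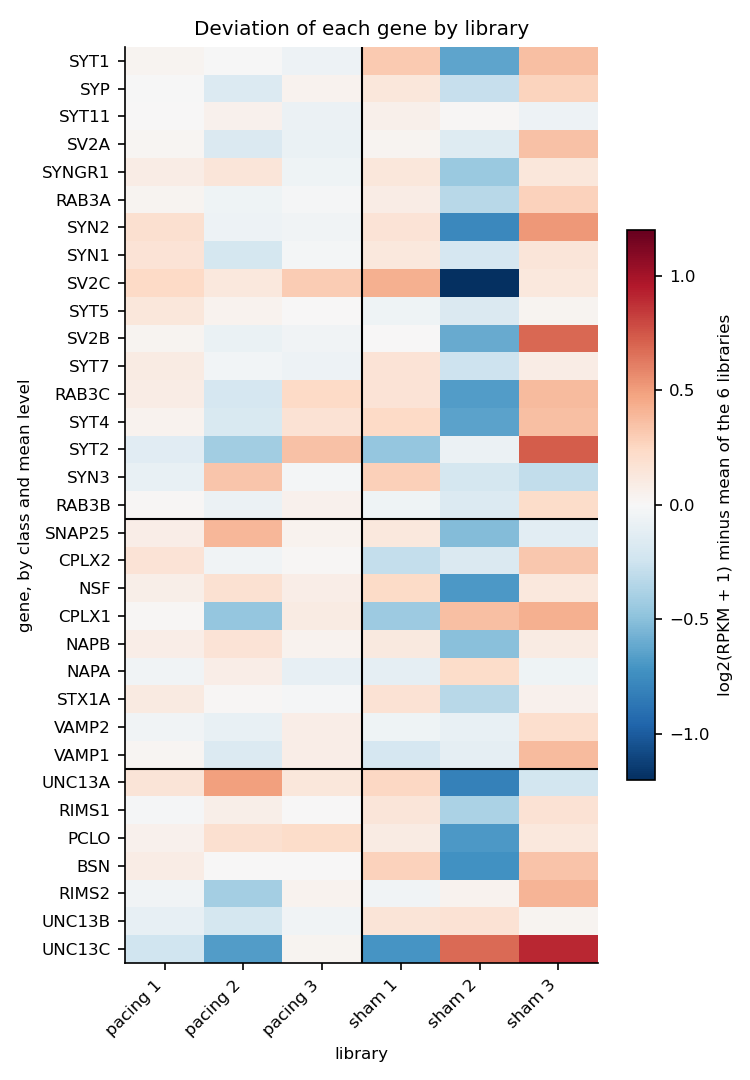
Log2(RPKM + 1) of each gene minus its mean over the 6 libraries, with genes in rows by class and libraries in columns; red is above and blue below that mean. The sham replicate 2 column is mostly blue, with UNC13C, CPLX1, NAPA and UNC13B red and RIMS2 and SYT11 just above their means, and the sham replicate 3 column is mostly red.

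Among the vesicle proteins, the synapsins tether vesicles to each other and to actin. SYN1 stood at 41.6, 31.8 and 36.3 RPKM in pacing and 40.4, 32.0 and 41.0 in sham, so the arms covered the same range. SYN2 stood at 45.6, 38.2 and 38.6 in pacing and at 44.7, 22.9 and 57.7 in sham, where replicates 2 and 3 bracketed every pacing library. SYN3, the rare synapsin, stayed between 1.92 and 3.50 RPKM. SYP (synaptophysin), an abundant membrane protein of the vesicle, stood at 169, 151 and 174 RPKM in pacing and 186, 140 and 203 in sham. Its X-chromosomal gene (X:42288071-42301802, minus strand, CanFam3.1) lies on the same chromosome and strand as SYN1 (X:41191571-41241557). SYNGR1 (synaptogyrin 1), a relative of synaptophysin, stood at 51.5, 53.5 and 46.6 in pacing and 53.0, 35.2 and 53.1 in sham, with sham replicate 2 alone below the rest.

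Of the synaptotagmins, SYT1 stood at 457, 443 and 427 RPKM in pacing and at 553, 287 and 572 in sham. The pacing libraries lay close together, with sham replicate 2 below and sham replicates 1 and 3 above all of them. SYT4, a synaptotagmin whose first calcium-binding domain is altered, showed the same order at 16.0, 13.5 and 17.6 against 18.5, 9.53 and 20.2. SYT7, a slow high-affinity sensor, ran from 19.7 to 26.5 RPKM over all libraries, and SYT5 from 24.8 to 30.9. SYT11, which does not bind calcium and is also made in glia, was the steadiest member, at 115, 120 and 110 RPKM in pacing and 120, 116 and 110 in sham. Its log2 difference was -0.01, with a 95% interval from -0.22 to 0.20, the narrowest of the 33. SYT2, the fast sensor of certain interneurons and brainstem synapses, was low and uneven at 7.66, 6.12 and 11.1 in pacing and 5.90, 8.04 and 14.6 in sham, with its highest value in sham replicate 3.

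The SV2 glycoproteins, which take part in priming and are the entry receptors of botulinum toxins, differed in their spread. SV2A, the form found in most neurons and the target of levetiracetam, stood at 85.6, 74.4 and 79.3 RPKM in pacing and 86.0, 75.3 and 107 in sham. SV2B stood at 27.1, 24.9 and 25.7 in pacing and 26.5, 17.1 and 43.2 in sham. SV2C had the largest shortfall of any member in sham replicate 2: 38.9, 35.7 and 40.5 RPKM in pacing against 44.4, 13.5 and 35.8 in sham. The sham replicate 2 value was 0.347 of the median of the other 5 libraries. Its log2 difference of 0.44 had an interval from -0.46 to 1.35 and was -0.06 without that library.

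RAB3 GTPases sit on the vesicle and bind the active zone protein RIM. RAB3A, the main form in brain (20:44796740-44802224, plus strand), stood at 49.0, 46.2 and 47.4 RPKM in pacing and 50.8, 37.7 and 57.9 in sham. RAB3C stood at 22.6, 18.3 and 25.1 in pacing and 23.8, 12.9 and 27.8 in sham. RAB3B stayed between 1.51 and 2.26. For each of the 3, sham replicate 2 was lowest, and sham replicate 3 highest. As a class, the 17 vesicle proteins had 8 higher and 9 lower members and a median log2 difference of -0.0011, with 0 passing the test.

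Among the SNAREs, SNAP25 (24:12003005-12081385, minus strand) was higher in pacing by arm mean, 976 ± 139 against 776 ± 170 RPKM (SD, n = 3 each; log2 difference 0.35, 95% interval -0.10 to 0.79, limma adjusted p = 0.611). Its arms overlapped, since sham replicate 1 (940) lay above pacing replicates 1 and 3. STX1A, syntaxin 1A, stood at 46.8, 44.0 and 43.1 RPKM in pacing and 49.0, 34.2 and 44.96 in sham. VAMP2, the main vesicle SNARE of forebrain, was among the even members at 15.8, 15.2 and 17.3 against 15.7, 15.3 and 19.0. VAMP1, its relative of spinal and brainstem synapses, stood at 2.47, 2.04 and 2.60 in pacing and at 1.96, 2.15 and 3.42 in sham. VAMP2 sits on an exon model of 962 bases (5:32975372-32977967, minus strand), so its low level next to SNAP25 depends on how complete that model is.

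Of the complexins, CPLX1 (3:91635953-91658084, plus strand) stood at 118, 84.9 and 125 RPKM in pacing and 86.2, 151 and 158 in sham, so sham replicates 2 and 3 were the highest libraries and pacing replicate 2 the lowest. Exons of CPLX1 overlap an opposite-strand model, LOC111095328, over 12.1% of its length. That model stood at 0.406 to 0.412 of CPLX1 in every library. Strand handling at counting is not stated, so reads of the 2 models in the overlap cannot be told apart. NSF, the ATPase that takes apart spent SNARE complexes, stood at 255, 276 and 257 in pacing and 285, 150 and 265 in sham. Its adaptor NAPB (beta-SNAP), the brain form, stood at 97.8, 104 and 95.2 against 100, 64.9 and 99.3. The adaptor of all tissues, NAPA (alpha-SNAP), stood at 63.0, 68.4 and 60.2 against 60.0, 75.5 and 62.2, with sham replicate 2 the highest library. The 9 SNARE and fusion genes had 5 higher and 4 lower members and a median log2 difference of 0.08, with 0 passing.

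At the active zone, BSN (bassoon) and PCLO (piccolo) are the giant scaffolds. BSN stood at 10.6, 9.89 and 9.92 RPKM in pacing and 12.2, 5.56 and 12.8 in sham. PCLO stood at 23.3, 25.8 and 26.3 in pacing and 24.0, 13.6 and 24.6 in sham. In both genes sham replicate 2 was near 0.5 of the median of the other libraries (0.527 and 0.551). RIMS1, which links RAB3, UNC13 and calcium channels, stood at 25.9, 27.4 and 26.1 against 29.0, 19.9 and 29.5. RIMS2 differed from it, at 9.23, 6.94 and 9.85 in pacing and 9.23, 9.85 and 13.0 in sham, with pacing replicate 2 the lowest library.

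The 3 UNC13 genes, which encode the Munc13 priming proteins, had arm means on different sides. UNC13A (20:45179275-45237544, plus strand), the main form of excitatory terminals, was 36.2 ± 5.43 RPKM in pacing and 25.9 ± 9.54 in sham. Single libraries stood at 33.3, 42.5 and 32.9 against 35.6, 16.6 and 25.4. Its log2 difference of 0.52 was the highest of the 33 (95% interval -0.08 to 1.12, limma adjusted p = 0.586), and sham replicate 1 lay above pacing replicates 1 and 3. UNC13B (11:51707968-51941148, plus strand) was the member with separate arms, at 6.92, 6.34 and 7.24 RPKM in pacing and 8.46, 8.60 and 7.67 in sham. The log2 difference was -0.24 (interval -0.47 to -0.01, limma adjusted p = 0.54). An opposite-strand model, LOC102156530, overlaps 6.91% of its exon length and was also lower in every pacing library, 4.26 to 5.45 against 6.15 to 7.06 RPKM (log2 difference -0.37, limma adjusted p = 0.427). As for CPLX1, strand handling at counting is not stated, so reads in the overlap cannot be told apart. UNC13C (30:19519177-20096633, plus strand), best known from cerebellar granule cells, had the lowest difference, -0.58, and the widest interval, from -1.55 to 0.39. It stood at 3.42, 2.27 and 4.34 in pacing and 2.19, 7.32 and 8.73 in sham, so sham replicate 1 was the lowest library of all. The 7 active zone genes had 4 higher and 3 lower members and a median log2 difference of 0.04, with 0 passing.

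**Figure D3:**
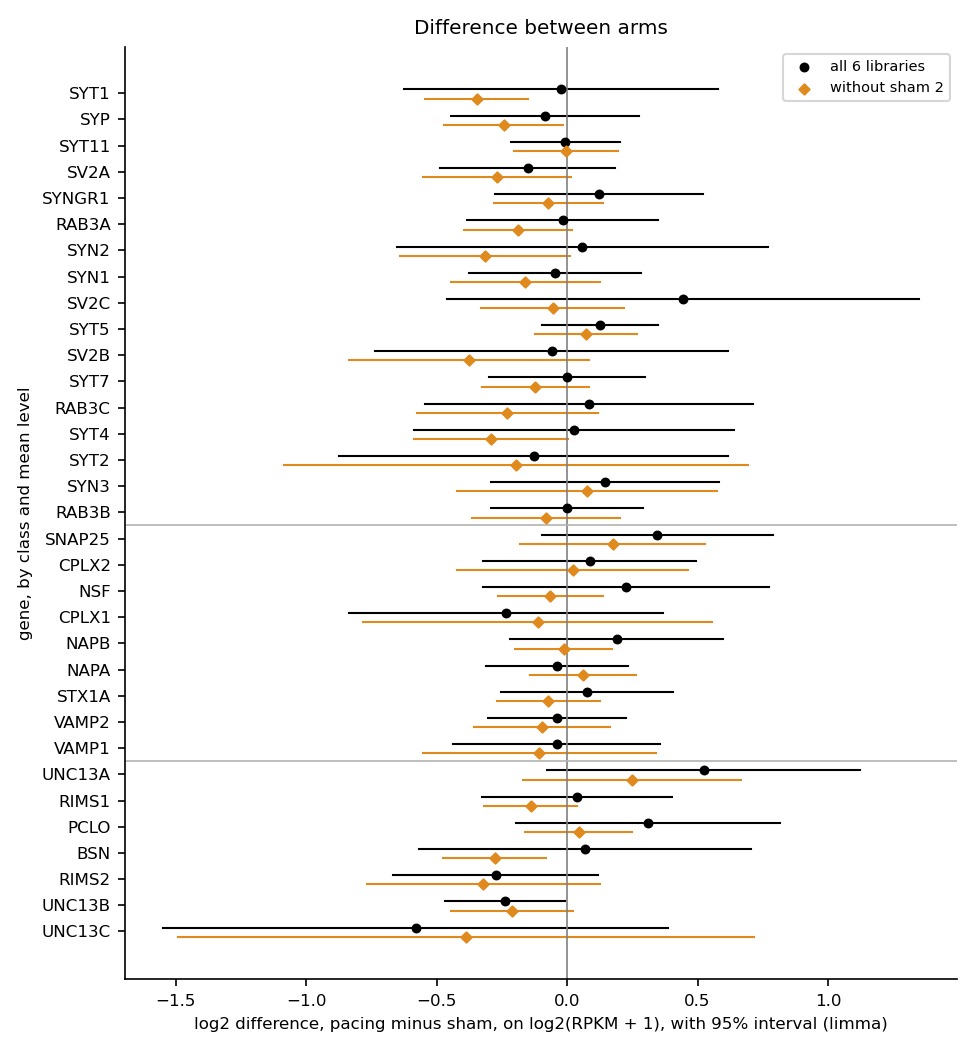
Log2 difference, pacing minus sham, on log2(RPKM + 1) with its 95% interval from limma for each gene, with all 6 libraries (black circles) and without sham replicate 2 (orange diamonds). With all libraries the UNC13B interval alone excludes 0, at -0.24; without sham replicate 2 the diamonds lie below 0 for 26 of 33 genes.

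The 95% interval of the difference lay within a log2 value of 1 on either side of 0 for 30 of 33 members, and within 0.5 for 15. The exceptions to the wider limit were SV2C, UNC13A and UNC13C.

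Sham replicate 2 was the lowest sham library for 23 members, so leaving it out raises their sham mean and lowers their difference. Without that library, 7 members were higher and 26 lower in pacing, and 12 members changed sign. The median log2 difference was -0.11 beside -0.03 for all genes. The median was -0.19 for vesicle proteins, -0.06 for SNARE and fusion genes and -0.21 for active zone genes. SYT1 had a log2 difference of -0.35 ± 0.08 (SE; limma adjusted p = 0.235), BSN -0.28 ± 0.08 (adjusted p = 0.308) and SYP -0.24 ± 0.10 (adjusted p = 0.4). In these 3, both remaining sham libraries lay above every pacing library, and 0 members passed. The same order held for SYT4, SV2A, RAB3A, RIMS1 and UNC13B, and its share over all genes is not given here. SYT1, BSN and SYP are the members with an unadjusted p under 0.05 in that fit, or 9.09% of the set beside 11.7% of all genes. Without sham replicate 3 instead, 26 members were higher and 7 lower, with a median of 0.14. Without sham replicate 1, 20 were higher and 13 lower, and 4 members (12.1%, beside 19.3% of all genes) had an unadjusted p under 0.05: UNC13C (-1.08, limma adjusted p = 0.0911), UNC13A (0.78, 0.133), CPLX1 (-0.51, 0.2) and SNAP25 (0.50, 0.201).

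Shares within gene families compare members inside a library. SYN1 and SYN2 each took near 50% of the synapsin RPKM in pacing (43.3% to 46.8% and 49.9% to 52.0%). In sham replicate 2 SYN1 took 56.1%, and in sham replicate 3 SYN2 took 57.3%. Of the SV2 total, SV2C took 25.6% to 27.9% in pacing and 28.3%, 12.7% and 19.2% in sham. RAB3A took 63.7% to 72.3% of the RAB3 total over all libraries, and VAMP2 took 84.7% to 88.9% of the summed VAMP1 and VAMP2 level. CPLX1 took 11.5% to 15.7% of the complexin pair in 5 libraries and 20.2% in sham replicate 2. UNC13C took 4.44% to 9.77% of the UNC13 total in pacing and 4.73%, 22.5% and 20.9% in sham. UNC13A took the complement with UNC13B, from 51.0% in sham replicate 2 to 83.1% in pacing replicate 2. These shares are descriptions, with no test.

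**Figure D4:**
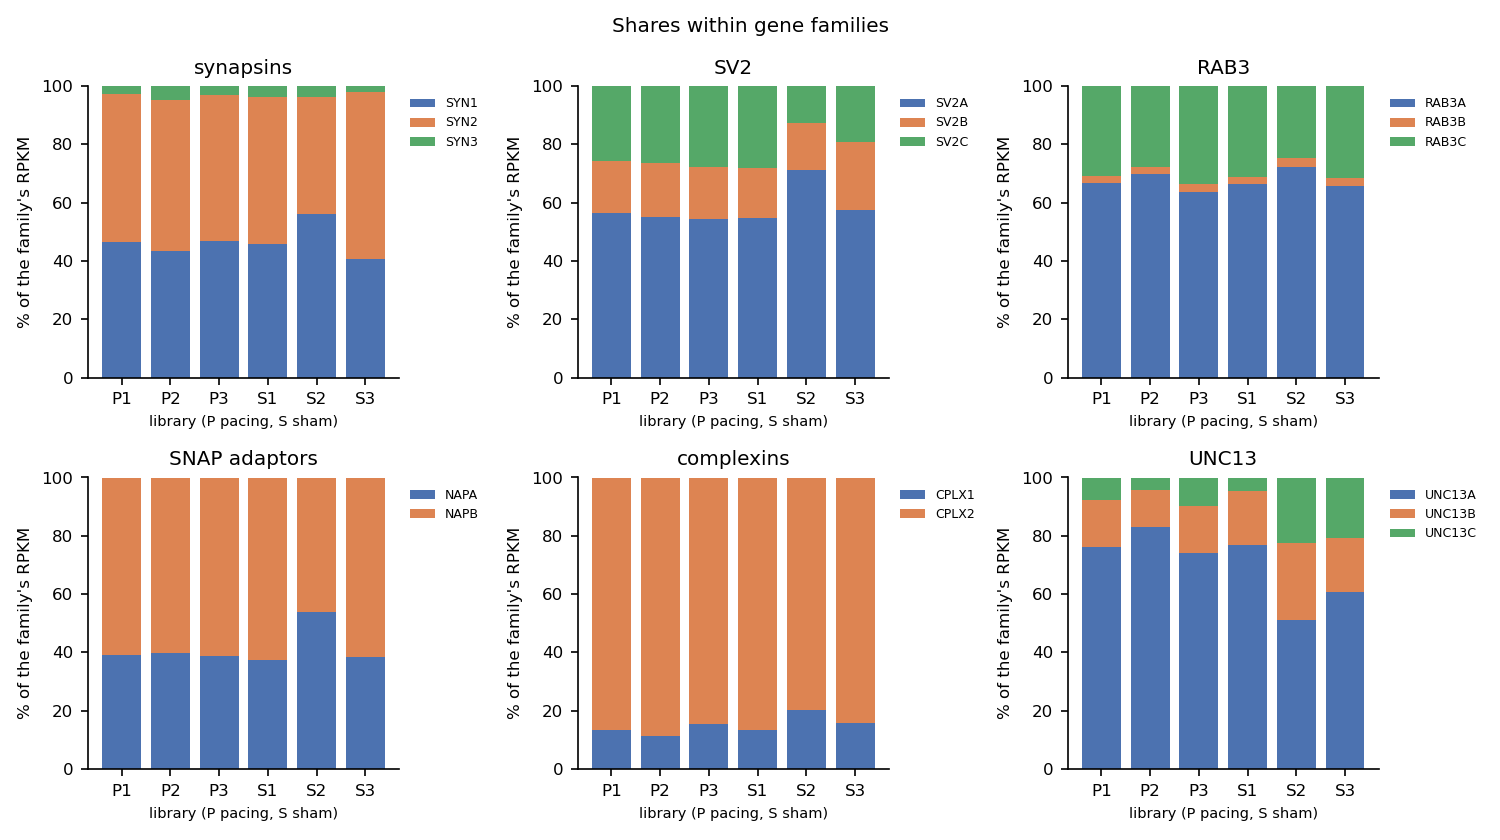
Share of each gene in the summed RPKM of its family (stacked bars to 100%) in the 3 pacing (P) and 3 sham (S) libraries, for 6 families. SV2C narrows to 12.7% and NAPA widens to 53.8% in S2, and UNC13C exceeds 20% in S2 and S3.

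Ratios of members to widely expressed relatives are given for 6 pairs, chosen after their values were seen, and are no general pattern. NAPB stood at 1.52 to 1.67 times NAPA in 5 libraries and at 0.86 in sham replicate 2. SNAP25 stood at 21.2 to 38.1 times SNAP23, the SNAP-25 relative of most cell types, and at 13.7 in sham replicate 2, where SNAP23 itself was highest (43.8 RPKM against 24.7 to 37.0). VAMP2 was 3.103 to 5.004 times VAMP3, the VAMP of general membrane traffic, and 1.91 times in sham replicate 2. STX1A was 1.04 to 1.30 times STX4, a plasma membrane syntaxin of many tissues, and 0.717 in sham replicate 2. SYNGR1 over SYNGR2 and SYP over SYPL1 were likewise lowest there, at 5.20 (11.0 to 19.2 elsewhere) and 16.6 (23.6 to 50.1). Other relatives went the other way: NAPG (gamma-SNAP) was lowest in sham replicate 2, at 25.9 RPKM against 35.1 to 42.0, as were VAMP4, VAMP7 and SNAP47. In bulk tissue, fewer neurons or terminals and less RNA per neuron cannot be told apart.

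Neuronal markers moved with the members in part. The mean deviation of the vesicle proteins from their 6-library mean was -0.40 in sham replicate 2 and 0.25 in sham replicate 3, on the log2 scale. For 12 pan-neuronal markers it was -0.26 and 0.24, and for 9 inhibitory neuron markers -0.27 and 0.26. SNARE and fusion genes stood at -0.20 and 0.16 and active zone genes at -0.24 and 0.25. The 7 excitatory neuron markers did not follow, at -0.11 and -0.14 with pacing replicate 2 highest (0.22), and 9 granule and CA neuron markers stood at -0.17 and -0.25. Oligodendrocyte markers ran opposite to the members, at 0.65 and -0.65, and astrocyte markers stood at 0.24 and -0.07. By the fitted difference, 6608 of the 16090 genes tested were higher in pacing and 9482 lower. An unadjusted p under 0.05 was found for 9.15% of them (limma). Beside these shares, 9 of 12 pan-neuronal markers were higher and 3 lower, and 1 of 9 inhibitory markers was higher and 8 lower. Without sham replicate 2, 0 of the 12 pan-neuronal markers were higher and 12 lower, and the inhibitory split was again 1 and 8. Of all genes tested, 6827 were then higher and 9263 lower. Of the 3 pan-neuronal markers lower with all libraries, ELAVL3 stood at 74.9 ± 2.16 RPKM in pacing against 87.6 ± 5.97 (SD, n = 3 each). The 1 inhibitory marker that was higher, PVALB, a calcium buffer of fast-spiking interneurons, stood at 12.3 ± 1.19 against 8.27 ± 1.42 (SD, n = 3 each). Neither passed (limma adjusted p = 0.543 and 0.378). Among microglial markers 6 of 9 were higher and 3 lower, with an unadjusted p under 0.05 for CD74, TMEM119 and P2RY12, all higher. Endothelial markers were 4 higher and 2 lower (PECAM1 and SLC2A1 at that p, both higher). Oligodendrocyte precursor markers were 4 higher and 1 lower (OLIG2, higher), and mural cell markers 5 and 1 (MYH11, higher). Thalamic neuron markers were 2 higher and 4 lower (PLEKHG1, lower). All 6 ependymal markers (FOXJ1 and HYDIN at that p) and all 7 immediate early genes tested (FOSB, FOS and JUNB at that p) were lower. None of these passed, with adjusted p from 0.2732 (CD74) to 0.5437 (JUNB and MYH11). Whether cell composition has a part in the members' values was not tested.

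**Figure D5:**
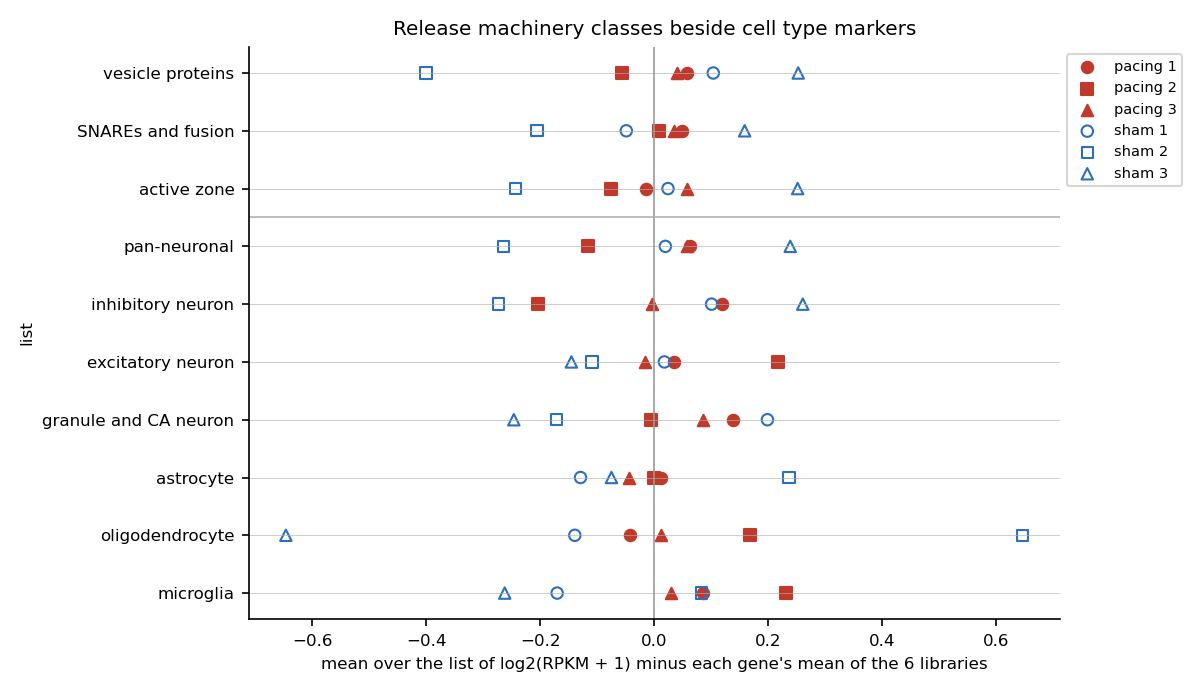
Mean deviation of each list from its genes' 6-library means, in log2(RPKM + 1), with 1 point per library (filled red for pacing, open blue for sham). In the member classes, pan-neuronal and inhibitory lists sham replicate 2 is lowest and sham replicate 3 highest, and the oligodendrocyte list has the opposite order.

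The other genes of the release and recycling cycle gave no call either. Of 109 listed genes, 107 were in the table and 103 were tested, and 0 passed in either direction. By the sign of the fitted difference 60 were higher and 43 lower in pacing, with a median log2 difference of 0.02 (55 and 48 by arm means of RPKM). Of all genes tested, 6608 were higher and 9482 lower, with a median of -0.04. The split by role was 20 higher and 11 lower for other vesicle proteins and transporters, and 7 and 11 for other SNAREs and their partners. It was 15 and 11 for other active zone genes, and 18 and 10 for endocytosis genes. Without sham replicate 2 these splits were 11 and 20, 5 and 13, 11 and 15, and 9 and 19. Over the 103 genes, 36 were then higher and 67 lower, with a median of -0.05. Of all genes tested, 6827 were then higher and 9263 lower, with a median of -0.03. With all libraries, a single gene had an unadjusted p under 0.05, against 9.15% of all genes tested. This was SYPL2, a synaptophysin relative known from skeletal muscle, at 0.505 ± 0.128 RPKM in pacing and 1.28 ± 0.420 in the sham arm (SD, 3 libraries each; limma adjusted p = 0.378). Sham replicate 2 was the lowest library for 63 of the 103, or 61.2%, beside 24.0% of all genes tested. Arms did not overlap for 7 higher and 1 lower of the 103, where 16.2% of all genes tested had separate arms. CPLX3, a complexin of retina and deep cortical neurons, stood at 30.7, 9.21 and 23.2 RPKM in pacing and 18.9, 54.5 and 66.0 in sham, with sham replicates 2 and 3 highest, as in CPLX1 and UNC13C.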

How the data were processed

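Messenger RNA of 6 hippocampal libraries, 3 per arm, was analysed. Trimmomatic 0.36, STAR 2.5.3a and featureCounts were used, per the submitters' processing notes; for their order, the annotation release and the strand setting no source used here gives a value. The deposited values are RPKM, which the authors scaled to exon length and to reads assigned to genes. Sequence names are those of CanFam3.1, and coordinates are the file's. RPKM times the deposited length column returned whole reads for 100% of values in each library (tolerance 0.001).

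Genes with a mean of at least 0.5 RPKM were tested with limma 3.58.1 (limma-trend, R 4.3.3) on log2(RPKM + 1), pacing against sham, with Benjamini-Hochberg adjustment over all genes at 0.05; folds of low genes are understated on this scale. Intervals are 95%. Python 3.11.15 made summaries. Fits were tested on simulated reads. Alternatives changed the pseudocount (0.1, 5), filter, scaling, weights, variance trend, replicate block and libraries; voom on recovered reads was added after the data were seen. The planned edgeR alternative was not run, and voom on the recovered reads took its place. Of the 6 pairs of libraries within an arm, none agreed within sampling noise; pairs across arms were not compared. All members are named, as are pathway and marker genes with an unadjusted p under 0.05 (at most 3 per list) and paralogues that complete a family; SNAP23, VAMP3, STX4, SYNGR2, SYPL1, VAMP4, VAMP7, SNAP47, TTR, NRGN and PROX1 were added after their values were seen. Members and lists were chosen with earlier results of these data known. DNAJC5 and NRXN3 were listed and are not analysed here.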

Additional observations from a re-analysis of the deposited data

How the results depend on the processing

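The count of 0 members and of 0 other pathway genes passing held under every alternative run. The count over all genes, 4, was 7 with no filter, 23 with library weights, 7 with the replicate number as a block and 3 to 95 when each library was left out (95 without sham replicate 1, 9 without sham replicate 2). The planned edgeR alternative was not run. Deviations of same-numbered libraries from their arm means correlated at -0.111, 0.0636 and -0.0109, and those of other pairs at -0.232 to 0.27. Whether same-numbered libraries share a batch was not tested. The block changed no call of a member. Medians ranged, over libraries left out, from -0.0643 to 0.138 for SNARE and fusion genes and from -0.211 to 0.134 for active zone genes, with the lowest values without sham replicate 2.

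When a library was left out, members as far from 0 as SV2C (0.444 with all libraries) changed sign. Under changed scaling, weights, pseudocount or voom, the members that changed sign had log2 differences near 0, and no cause was tested. With library weights these were SYN2 (-0.207), SYT4 (-0.164), SYT7 (-0.0519), SYT11 (0.0119), RAB3C (-0.116), CPLX2 (-0.0439), NAPA (0.00189), BSN (-0.139) and RIMS1 (-0.0728). With median-of-ratios scaling they were SYN1 (0.000892), SYT1 (0.0253), SYT11 (0.0424), RAB3A (0.031), RAB3B (0.0311), VAMP2 (0.00626) and NAPA (0.00886). With quantile normalization they were SYT11 (0.0235), RAB3B (0.0647) and VAMP1 (0.0265). RAB3B was 0.00371 at a pseudocount of 0.1 and 0.0232 with voom, and SYT7 was -0.000362 at a pseudocount of 5.

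When each library was left out, the vesicle proteins that changed sign ranged from -0.16 to 0.0462 for SYN1, -0.314 to 0.334 for SYN2, -0.244 to 0.025 for SYP, -0.0716 to 0.219 for SYNGR1, -0.347 to 0.149 for SYT1, -0.391 to 0.2 for SYT2, -0.291 to 0.214 for SYT4, -0.122 to 0.0811 for SYT7, -0.0391 to 0.0259 for SYT11, -0.375 to 0.269 for SV2B, -0.0558 to 0.768 for SV2C, -0.189 to 0.114 for RAB3A, -0.0826 to 0.107 for RAB3B and -0.23 to 0.294 for RAB3C. The others ranged from -0.152 to 0.138 for VAMP1, -0.0971 to 0.052 for VAMP2, -0.0731 to 0.18 for STX1A, -0.0327 to 0.272 for CPLX2, -0.0643 to 0.396 for NSF, -0.103 to 0.0599 for NAPA, -0.0138 to 0.297 for NAPB, -0.278 to 0.257 for BSN and -0.139 to 0.134 for RIMS1.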
